A study of Sus scrofa with 2 samples.

Results

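The genes described here are 7 members of the VEGF and angiopoietin systems, of 31908 genes in the pig annotation of the count files. They were found by gene symbol, and each matched 1 row: the ligand genes VEGFA, ANGPT1 and ANGPT2, the VEGF receptor genes FLT1 (VEGFR1) and KDR (VEGFR2), the angiopoietin receptor gene TEK (TIE2), and PTPRB, which encodes the endothelial tyrosine phosphatase VE-PTP. They were measured in nuclei of pig kidney cortex, sequenced as 1 unperfused and 1 perfused library. The kidneys came from a slaughterhouse, were flushed and kept cold, and cortex was frozen either without perfusion or once a kidney had been perfused ex vivo for 120 min at 37 °C and a pressure of 100 mmHg. The sources used here do not say whether 1 pig gave both samples, nor its breed, age or sex.

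VEGF-A is secreted by podocytes and tubule epithelium and acts on KDR of neighbouring endothelium, while FLT1 binds the same ligand tightly and signals weakly. Angiopoietin 1 activates TIE2 and keeps vessels quiescent, and angiopoietin 2, kept in endothelial granules, mostly antagonises it there. VE-PTP dephosphorylates TIE2 and so dampens its signalling, and it also acts on VE-cadherin. In the glomerulus this exchange between podocyte, endothelium and mesangium maintains the fenestrated capillary.

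After filtering, 6389 unperfused and 5421 perfused nuclei were analysed, with medians of 3755 and 4383 unique molecular identifiers (UMIs), each of which counts 1 captured RNA molecule. The libraries shared 14 barcodes, 8 of them among the kept nuclei. Nuclei were clustered without the 7 genes or the other 56 pathway genes in the files, and clusters were named "like" a cell type from marker genes among which none of these stood. The classes were PT (proximal tubule-like, 1846 unperfused and 1372 perfused nuclei), EC (endothelial-like, 1268 and 786), LOH (loop of Henle-like, 648 and 735), STROMA (stromal-like, 413 and 645), IMM (immune-like, 259 and 758), IC-A and IC-B (intercalated-like), DCT (distal convoluted tubule-like), PC (principal-like), PODO (podocyte-like, 89 and 30) and a small class of cycling nuclei. Cluster 6, with 517 and 223 nuclei, was led by SLC8A1, ADAMTS16 and CALB1 and kept its number, because only 2 connecting tubule markers counted in it. In EC all 12 endothelial markers were detected and summed to 11020 and 11240 CPM in the unperfused and perfused library, and in PODO all 7 podocyte markers in the files were detected and summed to 20430 and 23690 CPM. Levels are given as CPM, the UMIs of a gene in all nuclei of a class scaled to 1000000 UMIs of that class, and log2 ratios are perfused over unperfused. Each condition has 1 library, so no test was possible, every difference is one between 2 libraries, and the 95% intervals (exact Poisson for levels, exact binomial for shares and ratios) cover counting error only. UMIs carry no correction for gene length, so each gene is compared with itself across classes and libraries.

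The ligand gene VEGFA was highest in PODO in both libraries. It held 378 UMIs there in the unperfused library, 894 CPM (interval 806 to 988), and 106 in the perfused library, 475 CPM (389 to 574), a log2 ratio of -0.91 (-1.24 to -0.60). The level was lower in the perfused library and the intervals did not overlap. A VEGFA UMI was found in 84 of 89 unperfused and 29 of 30 perfused podocyte-like nuclei, so almost all of them carried the transcript. At 1000 UMIs per nucleus the share with VEGFA was 59.6% and 46.7% in PODO and 0.983% and 0.400% in EC, taken here as background.

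IC-A came next in the unperfused library at 144 CPM (125 to 164), followed by PT at 117 (111 to 124) and DCT at 109 (93.3 to 127), whose intervals overlapped. In the perfused library IC-A had 80.5 CPM (64.0 to 100), LOH 71.7, PT 67.1 and DCT 66.7, and no neighbouring pair in this order was separated by its intervals. The tubular order seen without perfusion was thus not resolved in the perfused library. VEGFA was at least 1.5-fold lower in the perfused library in PODO, where 20.3% of 3777 genes were so, in PT (16.2% of 13701), in IC-A (17.2% of 8807) and in DCT (14.3% of 8789). The log2 ratio was -0.80 (-0.94 to -0.66) in PT, -0.83 (-1.22 to -0.46) in IC-A and -0.71 (-1.12 to -0.31) in DCT. In nuclei thinned to 1000 UMIs the IC-A value was -0.19 (33 and 13 UMIs) and no longer 1.5-fold. Without the nuclei that carried a marker UMI of some other lineage, the PODO value was -0.50 (46 and 13 UMIs), also under 1.5-fold. Over all LOH nuclei the log2 ratio was -0.19 (-0.44 to 0.06), with 225 and 316 UMIs, so the counts there did not separate the libraries. IC-B had 39 and 13 VEGFA UMIs, a log2 ratio of -1.10 (-2.13 to -0.17). Without the nuclei carrying other lineages' markers it was -0.24, on 14 and 7 UMIs.

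PT joins clusters 0, 3 and 11, and VEGFA was lower in the perfused library in each of them. In cluster 0 it went from 119 to 76.0 CPM, in cluster 3 from 122 to 68.5, and in cluster 11, where the proximal tubule markers had a mean log2 fold of -0.36 over all other nuclei, from 54.9 to 24.4. PT nuclei held 47.0% of all VEGFA UMIs in the unperfused library (1236 of 2629) and 42.1% in the perfused library (639 of 1519). PODO held 14.4% and 6.98%, and LOH 8.56% and 20.8%. These shares also depend on class size, with 89 and 30 nuclei in PODO and 648 and 735 in LOH. The VEGFA level in LOH was 81.8 and 71.7 CPM. PT thus carried more VEGFA UMIs than any other class, while the level was highest in PODO.

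**Figure D1:**
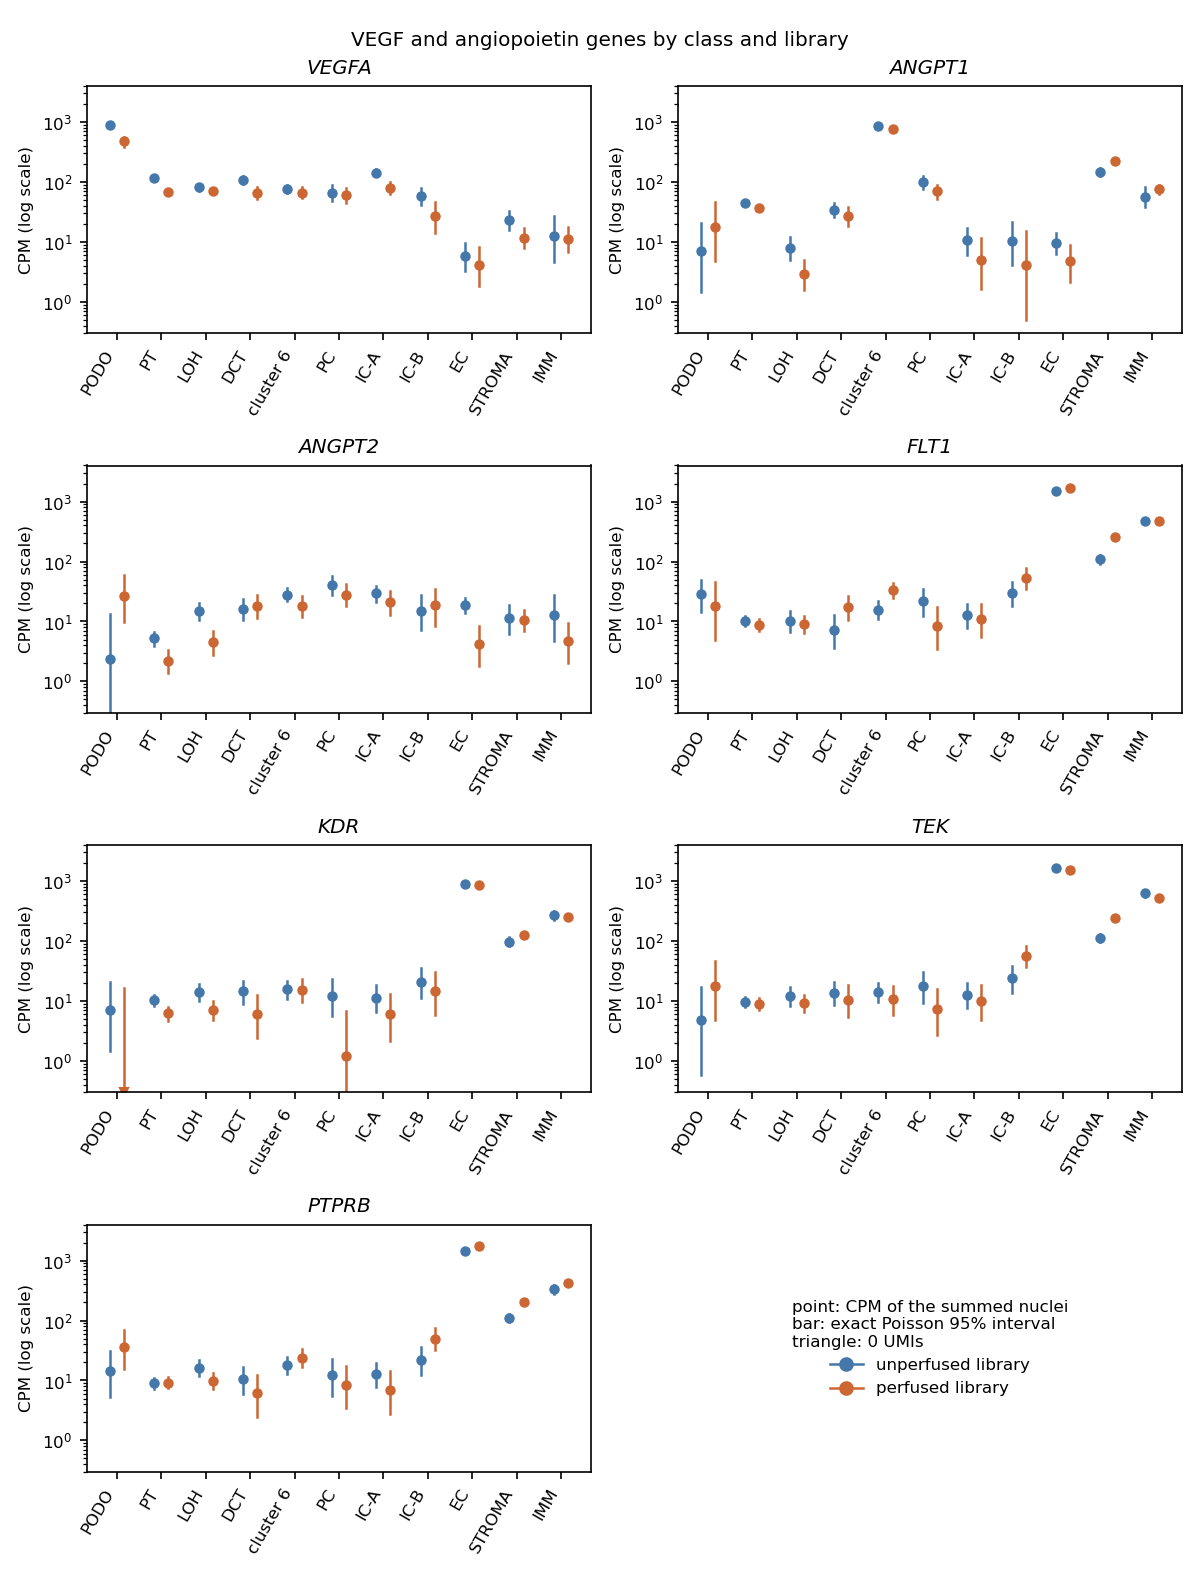
CPM of each gene (vertical axis, log scale) in 10 named classes and cluster 6, with the unperfused library in blue and the perfused library in orange; points are the summed nuclei of a class and bars exact Poisson 95% intervals. VEGFA stands highest in PODO at 894 and 475 CPM, ANGPT1 in cluster 6 at 869 and 768 CPM, and the receptor genes and PTPRB in EC.

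The ligand gene ANGPT1 had its highest level outside the glomerulus and the vessels, in cluster 6. This cluster held 1950 of 2907 ANGPT1 UMIs in the unperfused library (67.1%) and 1088 of 2305 in the perfused library (47.2%). The level was 869 CPM (831 to 909) and 768 CPM (723 to 815), a log2 ratio of -0.18 (-0.29 to -0.07). An ANGPT1 UMI was present in 82.0% of the unperfused and 82.1% of the perfused nuclei of cluster 6, against 1.89% and 1.15% in EC. The cluster's leading genes include CALB1, which encodes a calcium-binding protein of the distal nephron, and SLC8A1, which encodes a sodium-calcium exchanger.

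STROMA was second for ANGPT1 in both libraries, with 196 UMIs and 146.5 CPM (127 to 168) unperfused and 567 UMIs and 223 CPM (205 to 242) perfused. The perfused level was higher, by a log2 ratio of 0.61 (0.37 to 0.85). In STROMA subcluster 1, led by LRRC36, ART4 and HPSE2, it went from 224 to 404 CPM (log2 ratio 0.85, 0.41 to 1.32), while subcluster 0 had 173 and 181 CPM. In PT it was found at 44.3 and 37.1 CPM, and in PC at 98.8 and 69.6 CPM. Podocyte-like nuclei held 3 and 4 ANGPT1 UMIs.

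The ligand gene ANGPT2 was sparse in every class, with 391 UMIs in all unperfused and 214 in all perfused nuclei. EC was not its leading class in either library. PC had 40.6 CPM unperfused and 28.1 perfused, IC-A 29.4 and 20.9, and cluster 6 28.1 and 18.35. In EC ANGPT2 had 48 UMIs in 40 of 1268 nuclei of the unperfused library, 18.6 CPM (13.7 to 24.7), and 8 UMIs in 8 of 786 nuclei of the perfused library, 4.20 CPM (1.81 to 8.28). The perfused level was lower, with intervals that did not overlap, and the log2 ratio was -2.15 (-3.44 to -1.06). Of the 48 UMIs 25 lay in EC subcluster 0, 10 in subcluster 3 and 9 in subcluster 1. ANGPT2 was also lower in LOH, with 41 and 20 UMIs and a log2 ratio of -1.72 (-2.57 to -0.91), and in PT, with 55 and 21 UMIs and a log2 ratio of -1.24 (-2.04 to -0.49). The highest unperfused level, 99.1 CPM, was in unnamed cluster 16, led by GALNT14 and EPHA7, and rested on 17 UMIs. In RefSeq (Sscrofa11.1) ANGPT2 lies within MCPH1, a gene of chromosome condensation. The overlap was found by position without regard to strand, and whether it affects the counts was not tested. MCPH1 had 95 and 89 UMIs in EC, a log2 ratio of 0.34 (-0.09 to 0.78). Its log2 ratio was -0.58 (-0.92 to -0.24) in LOH and -0.46 (-0.77 to -0.15) in PT. TEK also overlaps a protein-coding locus in that annotation, and whether this affects its counts was not tested either.

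The receptor genes and PTPRB had their highest level in EC in both libraries, and no other class reached their EC interval. FLT1, the decoy-like VEGF receptor, had 3849 and 3227 UMIs in EC, 1493 CPM (1446 to 1541) unperfused and 1695 CPM (1637 to 1754) perfused. KDR, the main signalling receptor, had 2321 and 1648 UMIs, 900 CPM (864 to 938) and 865 CPM (824 to 908). TEK had 4214 and 2892 UMIs, 1634 CPM (1585 to 1685) and 1519 CPM (1464 to 1575). PTPRB had 3699 and 3363 UMIs, 1435 CPM (1389 to 1482) and 1766 CPM (1707 to 1827). A single perfused nucleus held 55 of the PTPRB UMIs. In PT each of the 4 genes stood between 6.20 and 10.2 CPM, taken here as background.

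FLT1 and PTPRB were higher in EC of the perfused library, by log2 ratios of 0.18 (0.12 to 0.25) and 0.30 (0.23 to 0.37), and both stayed under 1.5-fold. For KDR the log2 ratio was -0.06 (-0.15 to 0.04) and for TEK -0.11 (-0.17 to -0.04). The median over all 10402 genes in EC was -0.14, and scaling with TMM factors moved every EC ratio up by 0.14. Relative to that shift FLT1 and PTPRB stood at 0.32 and 0.44, KDR at 0.08 and TEK at 0.03, so the sign for KDR and TEK depends on the scaling. At least 1.5-fold higher were 0 of the 6 members with 20 or more UMIs in EC, against 2.91% of all genes, and 2 of 6 were at least 1.5-fold lower, ANGPT1 with 25 and 9 UMIs and ANGPT2, against 16.8% of all genes. With TMM factors these shares of all genes were 5.31% and 11.8%.

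**Figure D2:**
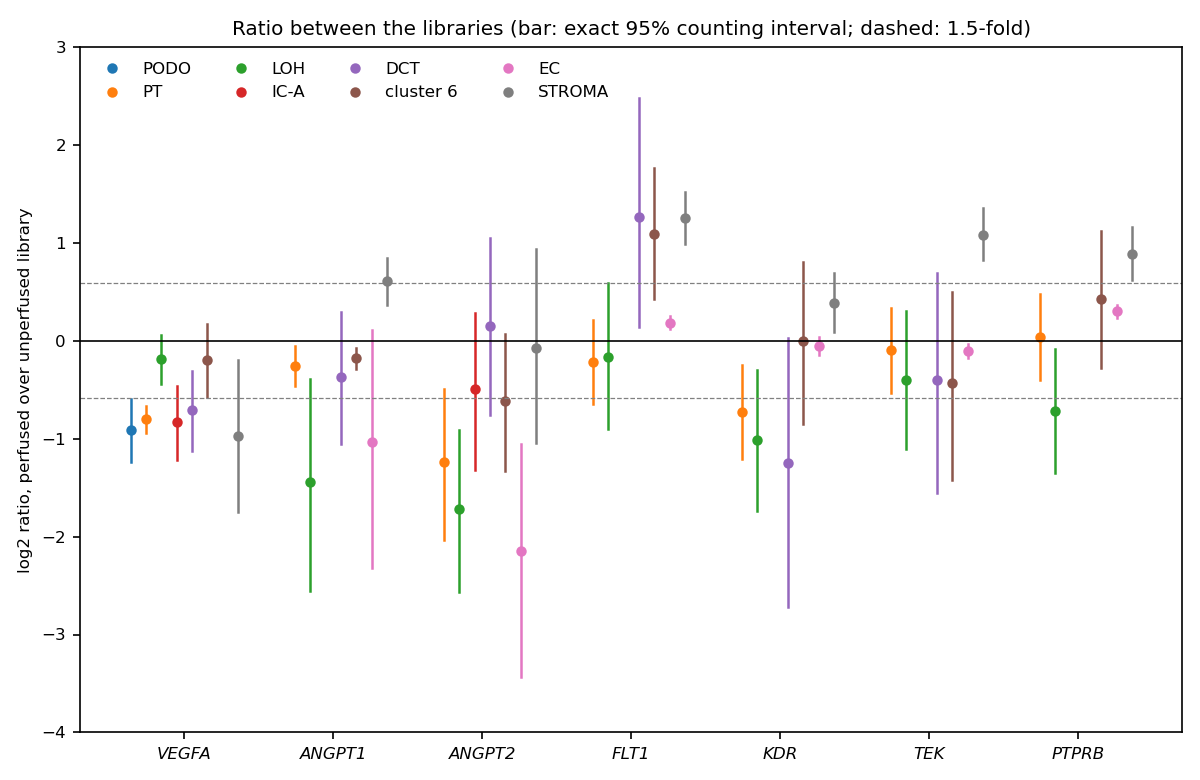
Log2 ratio of perfused over unperfused CPM (vertical axis) for each gene in 8 classes, shown where the library with more had at least 20 UMIs; bars are exact 95% counting intervals and dashed lines mark 1.5-fold. The EC ratios of the receptor genes and PTPRB lie between -0.11 and 0.30, and VEGFA lies below 0 in each class shown. The STROMA ratios of FLT1 and TEK exceed 1. FLT1 also exceeds 1 in DCT (11 and 20 UMIs) and cluster 6 (35 and 47 UMIs), where 1 perfused nucleus held 9 and 15 of these UMIs.

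Within EC the receptor genes differed between subclusters, and the subcluster highest in each gene other than FLT1 was the same in both libraries. EC was clustered again into 6 subclusters: one glomerular endothelium-like (EC-GLOM, 142 and 110 nuclei, led by EHD3 and GATA5), one arteriole-like (EC-AE, 26 and 16 nuclei, with GJA5 and HEY2 among its leading genes) and 4 without a name. Subcluster 0 (765 and 411 nuclei) was led by GRM5, RAB38 and DGKI, subcluster 1 (205 and 170) by ADAMTSL1 and CA8, subcluster 3 (102 and 54) by ADAMTS6 and PI16, and subcluster 4 (28 and 25) by NTN4 and GAPT. The markers of subcluster 3 matched the arteriolar list best, with 3 counted (SOX17, GJA4 and CXCL12). The markers of subcluster 4 matched the glomerular list best, with 3 counted (PLAT, GATA5 and TBX3). No marker of that list was among its leading genes, while GJA5, also a leading gene of EC-AE, was. Without a name, subcluster 4 is among the other EC nuclei where EC-GLOM is compared with them.

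KDR was highest in EC-GLOM, with 444 UMIs and 1388 CPM unperfused and 350 UMIs and 1249 CPM perfused. All other EC nuclei stood at 831 and 799 CPM. The log2 ratio of EC-GLOM over the other EC nuclei was 0.74 (0.59 to 0.89) in the unperfused and 0.64 (0.47 to 0.82) in the perfused library. Subcluster 0 followed with 1000 and 998 CPM, subcluster 4 with 881 and 866, subclusters 1 and 3 with 534 and 548 unperfused, and EC-AE was lowest with 6 and 3 UMIs.

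TEK ran the other way. EC-GLOM had 456 CPM (146 UMIs) and 393 CPM (110 UMIs), while the other EC nuclei had 1801 and 1713 CPM, a log2 ratio of -1.98 (-2.23 to -1.74) unperfused and -2.13 (-2.41 to -1.85) perfused. TEK was highest in subcluster 1 with 2208 and 2138 CPM, then in subcluster 0 with 1849 and 1779 and in subcluster 3 with 1528 and 1335. Subcluster 4, at 553 and 590 CPM, and EC-AE, at 562 and 325 CPM (42 and 20 UMIs), overlapped EC-GLOM in their intervals in both libraries. Low TEK was thus not particular to EC-GLOM.

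FLT1 was also lower in EC-GLOM than in the other EC nuclei, at 791 against 1592 CPM unperfused and 853 against 1840 CPM perfused, log2 ratios of -1.01 (-1.20 to -0.83) and -1.11 (-1.31 to -0.92). Its high levels were in subclusters 0 and 1, between 1775 and 2076 CPM, and it was lowest in EC-AE at 442 and 618 CPM. Subcluster 3, at 703 and 917.5 CPM, and subcluster 4, at 672 and 803 CPM, overlapped EC-GLOM in their intervals in both libraries. Low FLT1 was thus not particular to EC-GLOM either. PTPRB followed another order, with subcluster 4 highest at 2792 and 2962 CPM. In EC-GLOM it had 1500 CPM unperfused, close to the 1425 of the other EC nuclei, and 1981 against 1729 CPM perfused, log2 ratios of 0.07 (-0.07 to 0.21) and 0.20 (0.06 to 0.33). The higher perfused level of PTPRB was seen in EC-GLOM (log2 ratio 0.40, 0.22 to 0.58), subcluster 1 (0.33, 0.17 to 0.48), subcluster 0 (0.22, 0.12 to 0.32) and EC-AE (0.74, 0.37 to 1.12). In EC-AE 1 of the 16 perfused nuclei held 55 of the 146 PTPRB UMIs, so the interval there is too narrow. The EC-AE ratio without that nucleus was not computed. In subclusters 3 and 4 the intervals held 0.

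**Figure D3:**
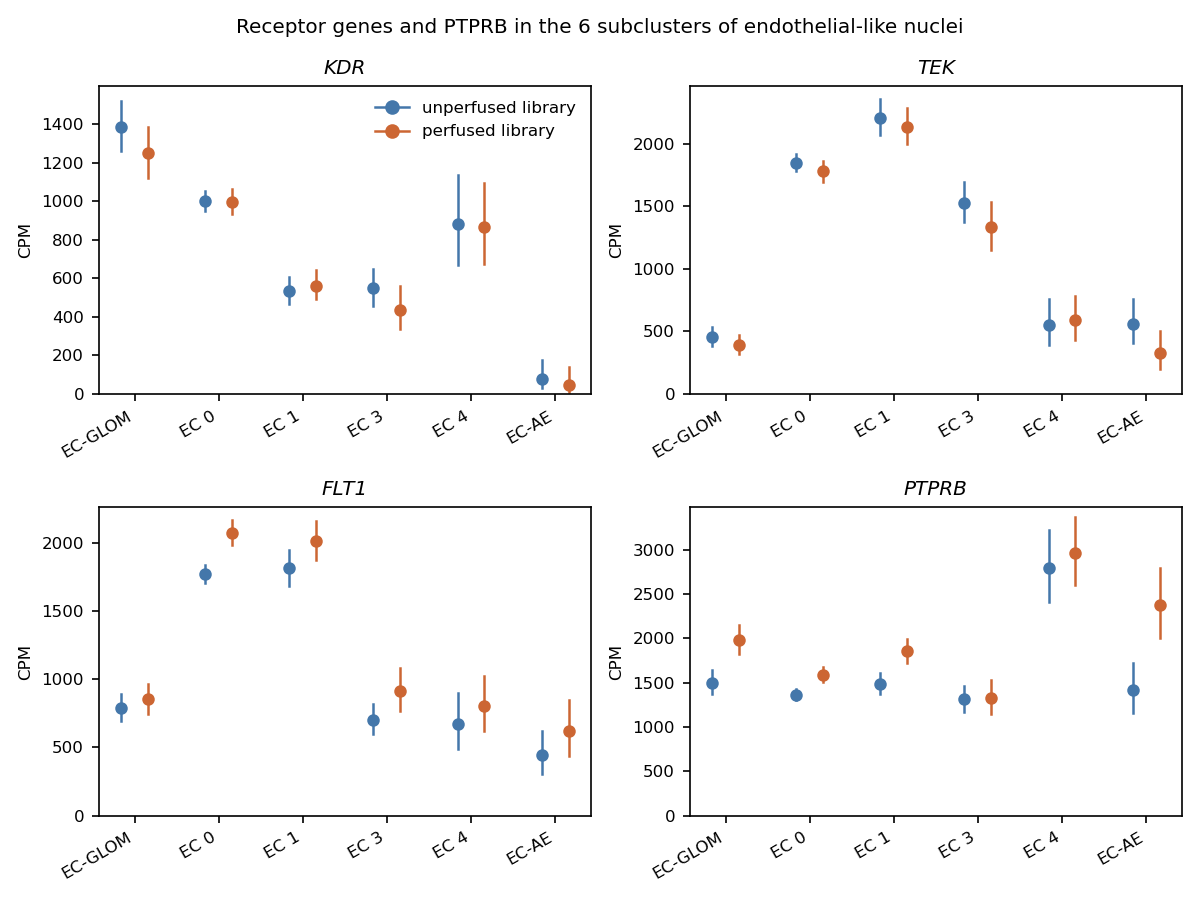
CPM (vertical axis, from 0) of KDR, TEK, FLT1 and PTPRB in the 6 EC subclusters, with the unperfused library in blue and the perfused library in orange and exact Poisson 95% intervals as bars. KDR is highest in EC-GLOM (1388 and 1249 CPM), where TEK is among its lowest (456 and 393 CPM), in both libraries.

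Single EC nuclei often carried several of these transcripts. At 1000 UMIs per nucleus, UMIs of all 4 genes were found in 227 of 1221 unperfused nuclei (18.6%) and 140 of 750 perfused nuclei (18.7%), and none of the 4 in 1.39% and 1.47%. FLT1 was detected in 72.2% and 72.4% of these nuclei, TEK in 69.5% and 67.6%, PTPRB in 68.6% and 75.9% and KDR in 54.1% and 49.9%. In PT the share with any one of these genes lay between 0.665% and 1.36%.

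Other classes held more of the receptor UMIs in the perfused library. EC held 84.7% of FLT1 UMIs unperfused and 64.6% perfused, IMM 4.95% and 16.2%, and STROMA 3.19% and 13.1%, while perfused IMM and STROMA also had more nuclei. For TEK the EC share was 84.7% and 62.1%, for KDR 79.8% and 63.7%, and for PTPRB 85.5% and 68.8%. Within IMM the level was 476 and 479 CPM for FLT1 and 621 and 525 CPM for TEK, and it was concentrated in IMM subcluster 1 (79 and 132 nuclei), where FLT1 had 1026 and 1023 CPM. That subcluster also had 1026 and 976 CPM of the endothelial marker PECAM1 and 1273 and 1462 CPM of EMCN, against 320 and 198 CPM of the leukocyte marker PTPRC. The part of these markers in the receptor levels of IMM was not tested.

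**Figure D4:**
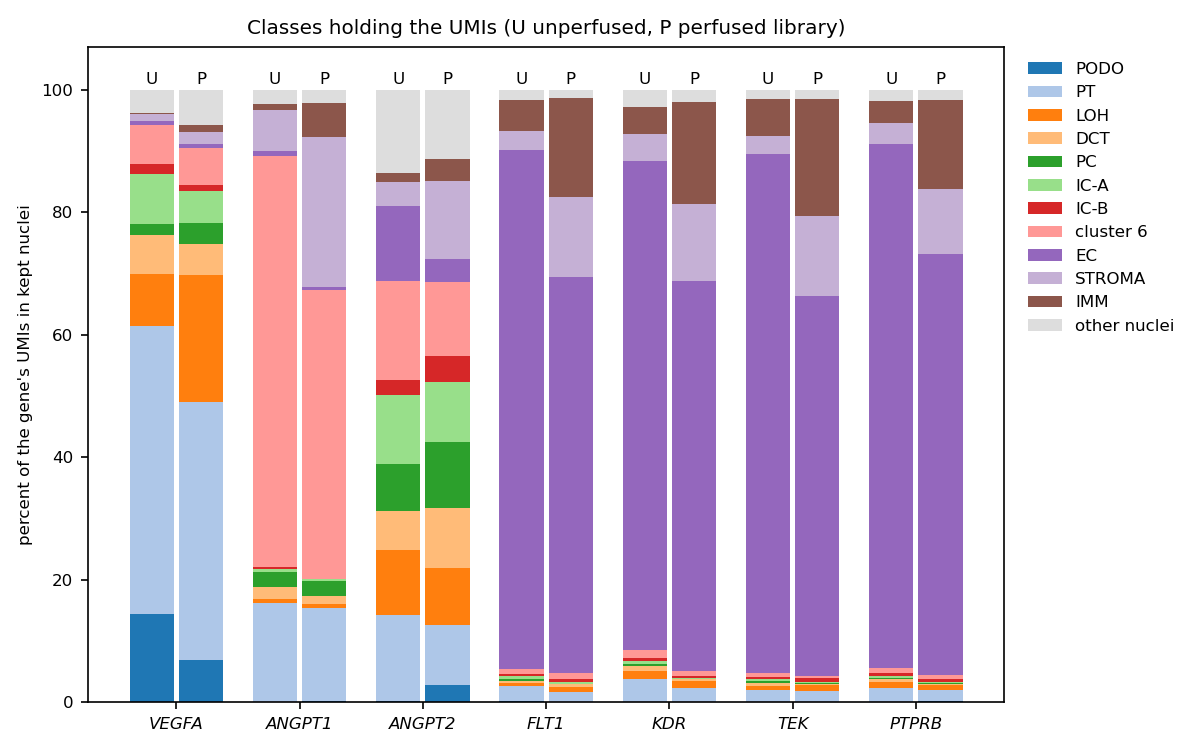
Percent of each gene's UMIs in kept nuclei (vertical axis) by class, with the unperfused (U) and perfused (P) library side by side; grey is the unnamed clusters other than cluster 6, together with cycling nuclei. The EC share of FLT1 is 84.7% and 64.6%, and the cluster 6 share of ANGPT1 is 67.1% and 47.2%.

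In STROMA 4 of the 7 members were at least 1.5-fold higher in the perfused library, where 14.2% of all genes were so, and 1 of 7 was lower, against 12.9%. FLT1 went from 145 to 655 UMIs and from 108.4 to 258 CPM, a log2 ratio of 1.25 (0.99 to 1.52). TEK went from 112 to 238 CPM (1.08, 0.82 to 1.35) and PTPRB from 110 to 203 CPM (0.88, 0.62 to 1.16), and ANGPT1 is given above. VEGFA was the lower one, with 31 and 30 UMIs and 23.2 and 11.8 CPM. STROMA joins clusters 5 and 13. In cluster 5 the log2 ratio was 1.39 (1.11 to 1.69) for FLT1, 1.24 (0.96 to 1.53) for TEK and 1.21 (0.885 to 1.54) for PTPRB. In cluster 13, led by ANO3 and MYH11, it was -0.20 (-0.975 to 0.60), -0.52 (-1.33 to 0.30) and -0.08 (-0.60 to 0.46). KDR stood at 0.92 (0.56 to 1.30) in cluster 5 and -1.32 (-1.98 to -0.68) in cluster 13. ANGPT1 was higher in both, at 0.53 (0.29 to 0.78) and 1.18 (0.24 to 2.24). The 12 endothelial markers together went from 1132 to 1947 CPM in STROMA and the 10 immune markers from 1047 to 2398 CPM, with PECAM1 at 169 and 265 CPM and PTPRC at 230 and 361.5 CPM, while PDGFRB, a mural and fibroblast marker, had 271 and 251 CPM. The 13 mitochondrially encoded genes went from 2514 to 9360 CPM there and the 67 ribosomal protein genes from 8782 to 16440 CPM. Over all barcodes of a library the mitochondrially encoded share of UMIs was 0.116% unperfused and 0.304% perfused, so that difference was not confined to STROMA. The part of these markers and of these RNA classes in the ratios, here and in other classes, was not tested.

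STROMA subcluster 0 (84 and 194 nuclei), with the immune genes FGD2 and CSF2RB and the endothelium-enriched LRRC3B and RASGRP3 among its leading genes, held 88 of the 145 unperfused and 517 of the 655 perfused FLT1 UMIs. Without it the log2 ratio was 0.80 (0.35 to 1.28) for FLT1, 1.11 (0.61 to 1.64) for TEK, 0.72 (0.35 to 1.09) for PTPRB and 0.89 (0.61 to 1.18) for ANGPT1. KDR, at 0.39 (0.09 to 0.69) in all of STROMA, then stood at -0.12 (-0.61 to 0.37). Each of the 4 calls ended under some other choice. With subclusters weighted equally the ratio was 0.30 for FLT1, 0.20 for TEK and 0.44 for PTPRB, and with doublets kept it was 0.36 for TEK and 0.40 for ANGPT1. All 4 stayed above 0 under each of the 14 alternatives, with lowest values of 0.30, 0.20, 0.44 and 0.40. None of these alternatives took cluster 5 or cluster 13 alone.

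In PT and LOH the receptor genes and PTPRB stood between 6.20 and 16.4 CPM, far below their EC levels. In PT 0 of 7 members were at least 1.5-fold higher in the perfused library (4.13% of all genes) and 3 of 7 were lower (16.2% of all genes), VEGFA, ANGPT2 and KDR, the last with 108 and 59 UMIs. KDR stood there at 10.2 and 6.20 CPM, within the levels taken above as background. In LOH 0 of 7 were higher (3.58% of 11765 genes) and 4 of 7 lower (12.4%), all with at most 45 UMIs in either library: KDR, PTPRB, ANGPT1 and ANGPT2. VEGFA, the ligand with most UMIs in LOH, was not among them. Free RNA was not subtracted in PT or LOH, and its part in the KDR and PTPRB calls was not tested.

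Of 58 further pathway genes listed, 56 are in the files and 47 reached 20 UMIs in EC. In EC 1 of 47 was at least 1.5-fold higher in the perfused library, RCAN1, a calcineurin inhibitor induced by VEGF, with 87.3 and 142 CPM and a log2 ratio of 0.70 (0.44 to 0.96), where 2.91% of all genes were so. RCAN1 was also higher in PODO, with 149 and 246 CPM, where 6.46% of 3777 genes were at least 1.5-fold higher. The perfused value there rests on 30 nuclei. In EC 5 of 47 were lower, where 16.8% of all genes were so. With TMM factors, which move every EC ratio up by 0.14, 11.8% of all genes were lower, and the 47 were not counted again. The 5 included PLCG1, the phospholipase recruited by KDR (58.2 and 36.2 CPM), and KLF4, a flow-responsive transcription factor (69.4 and 44.6 CPM). The others were the oxygen-sensing hydroxylase EGLN3 (21 and 3 UMIs), the nuclear receptor NR4A2 (53 and 24 UMIs) and the tip cell ligand APLN (27 and 13 UMIs). With the TMM shift PLCG1, KLF4, NR4A2 and APLN would fall under 1.5-fold, and EGLN3 would stay past it. The median log2 ratio was -0.04 over these 47 and -0.08 over the 6 members, and both lay above the -0.14 of all genes in EC.

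By group in EC, none of the 3 VEGF receptors and co-receptors passed 1.5-fold in either direction. The co-receptor NRP1 had 1156 and 1298 CPM, NRP2 294 and 284 CPM, and the lymphatic-associated receptor FLT4 58.2 and 50.4 CPM. TIE1, the orphan partner of TIE2, had 262 and 255 CPM. Without TMM factors, 1 of the 14 KDR effectors with enough UMIs passed, PLCG1, and of 6 TIE2 effectors 0. Of 10 VEGF-induced genes 1 was higher and 2 were lower, and of 12 regulators 2 were lower and 0 higher, against 2.91% of all genes higher and 16.8% lower. Among regulators below 1.5-fold, the ETS factor gene FLI1 had 867 and 1129 CPM (log2 ratio 0.38, 0.30 to 0.47), EPAS1 1335 and 1457 CPM, and the shear-responsive KLF2 299 and 238 CPM (log2 ratio -0.32, -0.50 to -0.16).

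None of the other ligand genes in the files was highest in PODO, as VEGFA was. VEGFC, a ligand of FLT4, was highest in IC-A at 351 and 328 CPM, followed by EC at 184 and 225 CPM. VEGFD was highest in STROMA at 81.5 and 94.0 CPM, and ANGPT4 there too at 38.1 and 26.4 CPM. PGF, a ligand of FLT1, had 8 and 28 UMIs in STROMA and at most 6 in any other class. In STROMA 9 of 46 pathway genes were higher in the perfused library and 4 were lower, against 14.2% and 12.9% of all genes. The higher ones included the endothelial genes TIE1 (26.2 and 45.2 CPM) and NOS3 (13 and 58 UMIs). Also among them were PDGFB, which encodes a ligand of PDGFRB (28 and 127 UMIs), PRKCB (177 and 332 CPM) and ETS1 (191 and 294 CPM). The lower ones were NR4A1 (170 and 74.4 CPM), SRC, GRB14 and F3, which encodes tissue factor (67 and 16 UMIs) and led a fibroblast-like subcluster of 29 unperfused and 2 perfused nuclei.

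The genes whose levels were most alike over the 11 named classes in both libraries (22 sums, which share libraries and depth) are given as a description. For VEGFA they were EPB41L5, COL4A3 and COL4A4, with Pearson's r of log2(CPM + 5) of 0.957, 0.944 and 0.940. For FLT1 they were RASGRP3, PTPRB and RASAL2 (0.991, 0.984 and 0.982), for TEK PTPRB, ROBO4 and EGFL7 (0.986, 0.985 and 0.985), for PTPRB ADGRL4, RASGRP3 and ARAP3 (0.988, 0.987 and 0.986), and for KDR SHANK3, CDH5 and SH2D3C (0.976, 0.973 and 0.971). For ANGPT1 (STAC, THBS1 and PRKCA) the highest r was 0.825, and for ANGPT2 (MAK, MRPS16 and PHF6) 0.774. The named classes leave out the unnamed clusters. Among these are cluster 6, highest in ANGPT1 in both libraries, and cluster 16, highest in ANGPT2 in the unperfused library. The genes listed for ANGPT1 and ANGPT2 therefore describe levels outside those nuclei.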

How the data were processed

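The authors prepared nuclei from frozen renal cortex and sequenced 1 library per condition. Per the labels, reads were counted with Cell Ranger 5.0.1, and by the methods reads in introns were included. The authors deposited UMI counts per gene and barcode, not normalized and from before their filters on nuclei. Whether the authors' SoupX removal of free RNA had been applied is not stated in the sources used here; it was assumed not, as every value is whole, and all background levels rest on that assumption. The reference was built from the Ensembl pig annotation, and coordinates (RefSeq) were used here only to find genes that overlap the members. Nuclei had to show 500 to 6000 genes and no more than 7% mitochondrial UMIs, and Scrublet (scanpy 1.11.5) marked 9.12% and 8.27% as doublets, which were removed. SoupX was not run here, since empty droplets were not used here. The libraries were integrated in Seurat 5.3.0 (30 dimensions, 15 principal components, resolution 0.5, the members and pathway genes left out of the variable genes). Clusters were named from marker lists (log2 fold above 1 with an offset of 5 CPM, at least 10% of nuclei, at least 3 markers), and EC, STROMA and IMM were clustered again, where each name was given only with an own marker in the top 10 genes, a rule added after those subclusters were seen.

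Totals were 34415254 unperfused and 35525592 perfused UMIs over 7179 and 6205 barcodes. A class sum was compared as a log2 ratio with an exact 95% interval, which covers counting error only and is too narrow where few nuclei hold the UMIs. Counts of genes past 1.5-fold used genes with 20 or more UMIs in 1 of the libraries, and a count of 0 allows up to 3 counts. The intervals and counts were run on simulated sums with Poisson counting error alone. Such sums hold no spread between nuclei or kidneys, so this checks the calculation and not that spread. Named genes are the 7 members, the pathway genes past 1.5-fold or highest in a class, and the 3 most alike genes per member; FLI1, EPAS1, KLF2, NRP1 and FLT4 were added after their values were seen. The members and lists were chosen with earlier results of these data known. The alternatives were doublets kept, a resolution of 0.3 or 1.0, no limit on mitochondrial UMIs, members allowed among the variable genes, no integration, scaling by TMM (edgeR 4.0.16) or DESeq2 1.42.0 size factors, free RNA subtracted, nuclei with other lineages' markers left out, thinning to 1000 UMIs, the richest nucleus left out, subclusters weighted equally, and other limits for the counts of genes.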

Additional observations from a re-analysis of the deposited data

How the results depend on the processing

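Each value was recomputed with 1 choice changed at a time. The log2 ratios of VEGFA in PODO (-0.956 to -0.497 over 12 alternatives) and PT (-0.890 to -0.624 over 11), of FLT1 (0.091 to 0.331) and PTPRB (0.250 to 0.448) in EC (13 each), of ANGPT1 in cluster 6 (-0.215 to -0.105) and of KDR, TEK and FLT1 in EC-GLOM over the other EC nuclei kept their sign. Without the nuclei that carried a marker UMI of some other lineage, the values were -0.497 for VEGFA in PODO (46 and 13 UMIs), -0.624 in PT, 0.091 for FLT1 in EC, -4.407 for ANGPT2 in EC (32 and 1 UMIs) and 1.110 for ANGPT1 in STROMA. TMM and DESeq2 scaling gave 0.323 and 0.331 for FLT1 in EC, 0.440 and 0.448 for PTPRB, 0.083 and 0.091 for KDR, and turned TEK to 0.034 and 0.042; both factors add a constant to all genes of a class. ANGPT1 in STROMA was 1.114 in nuclei thinned to 1000 UMIs, 0.951 with subclusters weighted equally and 0.892 without subcluster 0, and it fell under 1.5-fold with doublets kept (0.399), the lowest of its 14 values, and at a resolution of 0.3 (0.424) or 1.0 (0.496), with no mitochondrial limit (0.420), no integration (0.422) or the members among the variable genes (0.574). KDR in STROMA turned to -0.761 with equal weights and -0.120 without subcluster 0. The last setting and both other ways to mark glomerular nuclei were chosen after seeing the data: nuclei with against without an EHD3 UMI gave 0.442 for KDR and -1.813 for TEK (perfused) and -0.590 and -0.917 for FLT1 (unperfused and perfused), and the first clusters gave -1.733 for TEK (unperfused). Thinning gave -1.329 for FLT1 there (unperfused). Where no reason is named, the cause was not tested.

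Counts moved with the limits. With at least 100 UMIs, 0 members were lower in EC, STROMA and LOH, and 2 pathway genes were lower in EC and 1 in STROMA, since fewer genes are read. At 2-fold, 2 members were higher and 0 lower in STROMA and 1 was lower in PT, and of pathway genes 0 were higher and 1 lower in EC and 2 higher and 2 lower in STROMA. With at least 4 UMIs, 8 pathway genes were lower in EC. Free RNA was subtracted in EC, STROMA and PODO alone. No paired analysis was possible because each condition has 1 library. Depth limits ANGPT2 most, which had 8 UMIs in perfused EC, and 30 perfused nuclei limit PODO.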
